A study of Mus musculus with 58 samples.

Results

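The RNA yield of 14755 short sequences was measured behind the promoter of one mouse long intergenic non-coding RNA (lincRNA), 4930461G14Rik, here 14Rik. The measurement rests on 6 of the 58 samples of the series: total-RNA libraries #1 to #3 and the genomic DNA (gDNA) libraries of the same numbers, all untreated. In every one of them a library of 16461 inserts of 175 nt had been integrated into the CAST allele of wild-type F121-9 mouse embryonic stem cells, a hybrid line, 102 nt downstream of the lincRNA start site. RNA was reverse transcribed from a primer 287 nt downstream of the insert, so only transcripts that reached past the insert could be counted. Inserts were kept when they had at least 50 reads in all 3 gDNA libraries, which 1706 did not have, and 125 of those had no read in any of the 3. The libraries set beside them came from untreated cells with the same inserts at Pou5f1, which encodes the pluripotency factor Oct4. They were 4 total-RNA and 4 gDNA libraries of a reporter line, with the insert 157 nt into the upstream antisense transcript and the primer 221 nt past the insert. For splicing alone, 3 total-RNA libraries of the reporter line with the inserts at the same Pou5f1 position were also used, from cells given a non-targeting siRNA (siNT).

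The labels number the 3 screens but do not say whether they came from separate integrations or cultures, so p-values measure the spread between these libraries, which may be technical. The RNA libraries held 32798358 to 76862326 reads on insert references and the gDNA libraries 10271704 to 48334996, and 50.3% to 56.7% of a library's reads matched no reference. No 2 libraries of a kind agreed within sampling noise. The counts cover inserts only, so the labelled cell type could not be checked against marker genes. The files name an insert by its number alone and pair it with no gene or sequence.

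Promoters of lincRNAs and the antisense side of protein-coding promoters start transcription readily, but many of their transcripts end early and are degraded. Splice sites are known to favour long, stable transcripts, in part because the U1 snRNP that binds 5′ splice sites protects nascent RNA from premature cleavage and polyadenylation. INSERT-seq reads this out by holding the promoter constant and exchanging the first transcribed sequence: RNA per gDNA is the amount of RNA that reached the primer per integrated copy.

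The host gene is annotated as a lncRNA on chromosome 9 from 58455173 to 58469623 (GRCm38.p6). The sequence around its annotated start is shown because every insert was integrated downstream of the lincRNA start site; whether the start that the labels count from is the annotated one is not given. The RefSeq sequence at chr9:58454923-58455222, plus strand, holds 250 bases before the annotated start in lower case and the 50 bases after it in capitals, and 52.0% of its bases are G or C. It is the reference sequence, not that of the CAST allele that carried the inserts.
14Rik annotated start: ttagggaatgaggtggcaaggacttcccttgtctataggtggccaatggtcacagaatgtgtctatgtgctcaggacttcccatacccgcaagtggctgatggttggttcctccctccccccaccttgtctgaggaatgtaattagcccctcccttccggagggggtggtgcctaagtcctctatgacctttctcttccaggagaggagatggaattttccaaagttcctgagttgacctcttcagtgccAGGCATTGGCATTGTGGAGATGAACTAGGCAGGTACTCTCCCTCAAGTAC

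Behind this one promoter, inserts differed widely in RNA yield. RNA per gDNA of an insert was expressed per screen as log2 of the RNA reads over the gDNA reads of the same number, after scaling each library (TMM) and adding a prior count of 2, so that 0 is close to the yield of a typical insert. Its 5th and 95th percentiles were -4.84 and 2.44 in screen 1, -4.85 and 2.67 in screen 2, and -3.96 and 2.58 in screen 3. These ranges span 155-fold, 183-fold and 92.8-fold. The low side was the longer one: among inserts called, 997 were more than 8-fold lower in RNA than in gDNA, against 269 more than 8-fold higher.

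Of the 14755 inserts, 3598 had a higher share of the RNA than of the gDNA and 2733 a lower one, with a Benjamini-Hochberg adjusted p under 0.05 by edgeR's quasi-likelihood test with the screen as a block. That is 42.9% of the inserts called, 24.4% higher and 18.5% lower. Of the 6331 called, 6321 had the same sign in all 3 screens, as did 70.9% of all inserts tested. The split rests on the scaling: with library totals, the median of all inserts was -0.79 in place of -0.08, and 1808 inserts were higher and 4776 lower. Each level below is therefore relative to the other inserts, and the shift of -0.71 on the log2 scale applies to all of them alike. Without screen 3 the number called was 2816.

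The screens ranked the inserts alike, with differences in tightness. Across the 14755 inserts, the levels of screens 2 and 3 correlated at r = 0.782, those of screens 1 and 3 at 0.701 and those of screens 1 and 2 at 0.637; inserts of a screen share its 2 libraries, so no p is given. The median absolute difference between a pair of screens was 0.68 to 0.94 on the log2 scale. The spread followed depth: the median SD over the 3 screens was 1.54 for the 331 inserts whose gDNA reads averaged 50 to 200 and 0.50 for the 4334 averaging 2000 or more. In the deep class 55.0% of inserts were called, against 18.4% in the shallow one, although the median size of the fitted change was 1.10 in the deep class and 2.44 in the shallow one.

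The named inserts are the ones with the largest change in each direction, taken separately with and without a spliced reference, a second alignment target from which part of the insert has been removed. Among inserts with one, sequence_14233 had 27588, 14096 and 17838 RNA reads in screens 1 to 3, against 484, 132 and 118 gDNA reads. Its RNA was high in every screen, at log2 levels of 5.78, 5.78 and 6.45, and the fitted log2 fold change was 6.01 ± 0.34 (SE; edgeR adjusted p = 0.000282). Between 94.8% and 99.4% of its RNA reads lacked the same 88 nt, and on unspliced reads alone its log2 fold change was 0.01 (edgeR adjusted p = 0.997). The screens differed on these reads, with log2 levels of 1.63, -1.46 and -0.12.

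Among inserts without a spliced reference, sequence_11994 had 22124, 26860 and 75148 RNA reads, against 322, 256 and 320 gDNA reads. Its levels were 6.04, 5.75 and 7.10, so screen 3 stood above the other two, and its log2 fold change was 6.30 ± 0.37 (SE; edgeR adjusted p = 0.000282). Its gDNA reads were about equal in 3 libraries that differed several-fold in depth.

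At the other end, sequence_10084, whose spliced reference lacks 35 nt, had 6, 0 and 2 RNA reads, against 820, 382 and 316 gDNA reads (edgeR adjusted p = 0.00332). The insert sequence_16275, without a spliced reference, had 6, 0 and 0 RNA reads, against 352, 1508 and 1124 gDNA reads (edgeR adjusted p = 0.0025). Both were integrated in every screen and gave almost no RNA past the insert; their fitted changes of -8.36 and -9.45 rest on 8 and 6 RNA reads and depend on the prior count. Of all inserts tested, 344 had no RNA read in at least 1 screen and 1 had none in all 3.

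Inserts with a spliced reference yielded more RNA. Of the 2091 tested, 1019 (48.7%) were called higher and 160 (7.65%) lower, against 2579 (20.4%) higher and 2573 (20.3%) lower of the 12664 without one. Their median levels were 1.17, 1.00 and 1.27 in screens 1 to 3, and those of inserts without one were -0.22, -0.17 and -0.25. The difference between the medians was 1.39, 1.17 and 1.52 per screen, or 1.36 ± 0.18 (SD, n = 3), a 2.57-fold gap. The basis on which the authors chose the spliced references was not given in the sources used. If they were chosen from spliced reads in these RNA libraries, having one is not independent of the RNA level.

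**Figure D1:**
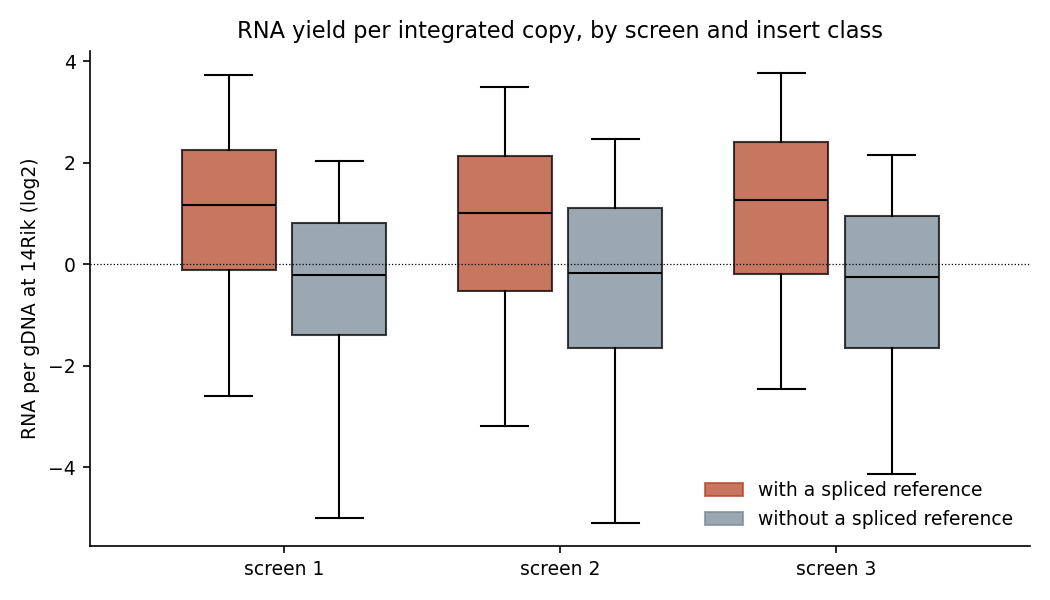
RNA per gDNA at 14Rik (log2) of each insert in screens 1 to 3, for the 2091 inserts with a spliced reference (left box of each pair) and the 12664 without one (right box). Boxes are quartiles, the line is the median and whiskers reach the 5th and 95th percentiles; the median is 1.00 to 1.27 with a spliced reference and -0.25 to -0.17 without one.

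The gap was measured on all reads and was not seen on unspliced reads. Leaving out spliced reads takes reads only from inserts that have a spliced reference. Unspliced counts were scaled anew, so here and below their levels are not on the scale of all reads. The mean for inserts without a spliced reference, which lose no reads, moved from -0.21 to -0.07. Counting unspliced reads alone, the medians of inserts with a spliced reference were 0.20, -0.14 and -0.06, against -0.10, -0.04 and -0.09 for the rest. The gap was then 0.29, -0.10 and 0.03 in the 3 screens, with a mean of 0.07 ± 0.20 (SD, n = 3), so that its sign differed between screens. In pooled reads, inserts with a spliced reference made up 24.4%, 22.4% and 25.5% of the RNA reads and 12.2%, 13.2% and 12.4% of the gDNA reads of screens 1 to 3, and the spliced reads were 12.7%, 11.4% and 15.0% of all RNA reads. The amplified product of a spliced molecule is shorter by the length removed, and the RNA libraries were amplified by PCR without molecular identifiers; the part of product length in the gap was not tested.

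The yield differed with the length that the spliced form removes. Among inserts with 1 spliced form, the 314 with under 70 nt removed had a mean of screen medians of 0.26 ± 0.12 (SD, n = 3), and 28.3% were called higher and 14.3% lower. With 70 to 94 nt removed the level was 1.22 ± 0.18, with 95 nt to under 120 nt it was 1.34 ± 0.18, and with 120 nt or more it was 1.48 ± 0.26, with 51.2%, 52.2% and 54.7% called higher. The ranges of the 3 longer classes over screens overlapped. Within each screen, however, the median level rose from class to class with the length removed, and the shortest class was the lowest. The steps between the 3 longer classes were not tested. With library totals the shortest class alone was below 0, at -0.45. Unspliced reads alone ran the other way, at 0.39 ± 0.09 for under 70 nt and -0.33 ± 0.28 for 120 nt or more. That count leaves out spliced reads, whose part was largest in the class of 120 nt or more.

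The same lengths ordered the spliced share, the percentage of an insert's RNA reads that fall on its spliced references. The median share was 0% in all 3 screens for inserts with under 70 nt removed. It was 37.4%, 41.2% and 46.2% for 70 to 94 nt, 39.4%, 42.2% and 50.8% for 95 nt to under 120 nt, and 60.1%, 65.2% and 75.4% for 120 nt or more. Inserts with 2 or more spliced forms differed in level from those with 1 by less than the spread between screens, at 1.13 ± 0.15 against 1.15 ± 0.14 (SD, n = 3 each).

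At the lincRNA site the spliced share ran from none to nearly all of an insert's RNA. Of 2404 inserts with a spliced reference, 2172 had at least 20 reads in all 3 RNA libraries, with no minimum of gDNA reads. Their median share was 30.4%, 35.1% and 41.3% in screens 1 to 3, or 35.6% ± 5.47 (SD, n = 3). By class, 542 inserts (25.0%) were spliced in under 1% of their reads, 231 (10.6%) in 1 to 10%, 451 (20.8%) in 10 to 50%, 666 (30.7%) in 50 to 90% and 282 (13.0%) in 90% or more. No spliced read was found in any screen for 425 inserts, and 179 were over 90% in each of the 3. The screens ranked the shares alike (r = 0.892 to 0.935 across inserts), and for inserts between 10% and 90% the median SD over screens was 9.71 percentage points.

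**Figure D2:**
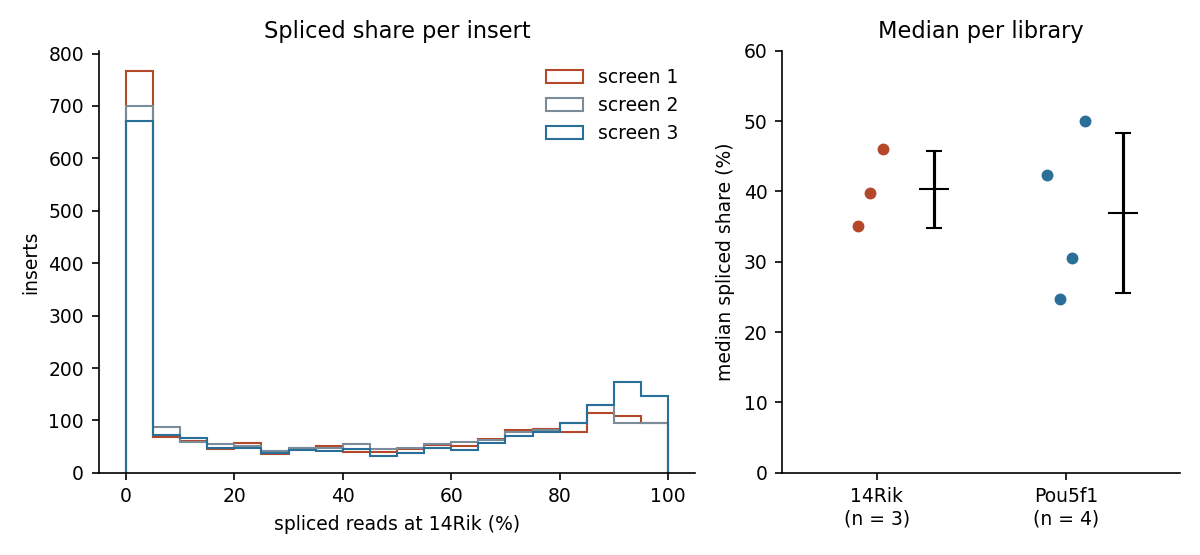
Left, number of inserts by the percentage of their RNA reads that are spliced at 14Rik (bins of 5 percentage points), one line per screen, for the 1989 inserts that also passed the gDNA minimum. Right, median spliced share per library (%) over 1887 inserts with 20 reads in all 7 RNA libraries, 14Rik on the left and Pou5f1 on the right, with mean and SD; most inserts lie near 0 or above 50%, and the 14Rik medians of 35.1% to 46.0% lie within the Pou5f1 range of 24.8% to 50.0%.

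Among the inserts over 90% in each library, those with the most RNA reads were sequence_12708 and sequence_12756. The spliced form of sequence_12708 lacks 142 of the 175 nt and held 92.7%, 93.9% and 95.4% of its 57118, 20488 and 25246 RNA reads. That of sequence_12756 lacks 124 nt and held 91.4%, 93.6% and 93.7% of 50538, 17590 and 34476 reads. Both had RNA per gDNA well above that of a typical insert in every screen, with mean log2 levels of 2.93 ± 0.45 and 2.97 ± 0.37 (SD, n = 3), and both lay below 0 in each screen on unspliced reads alone, at -1.44 to -0.67 and at -1.29 to -0.31.

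Some inserts with no spliced read also gave much RNA. Among the inserts with no spliced read, those with the most RNA reads were sequence_01773 and sequence_04954, whose spliced references lack 128 and 60 nt. The insert sequence_01773 had 0 spliced reads of 88044 over the 3 screens, which allows a share of up to 0.00341%. For sequence_04954 it was 0 of 68438, which allows up to 0.00438%. These limits cover counting error only, take each read as a separate observation, and are too low if both mates of a pair were counted. Their log2 levels were 2.44, 2.79 and 2.67 for sequence_01773 and 1.56, 2.25 and 1.88 for sequence_04954.

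Where an insert had several spliced forms, they were used unequally. Of the 145 such inserts, 96 had at least 20 spliced reads in each screen, and their main form held a median of 81.7% of the spliced reads. The main form was over 90% in 37 inserts and under 75% in another 37. It was the same form in all 3 screens for 73 of the 96, and was the longest removal in 41 and the shortest in 51. In sequence_03061, with the most RNA reads among them, the form lacking 107 nt held 84.0%, 87.0% and 84.6% of the spliced reads, although the other form lacks 104 nt. In sequence_03339 the form lacking 87 nt held 100%, 99.9% and 99.7%, and the one lacking 39 nt the rest.

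To set yield against splicing measured in other libraries, inserts were grouped by their mean spliced share in the 3 siNT libraries at Pou5f1, which are none of the 14Rik libraries. Only inserts with at least 20 reads in all 3 siNT libraries were grouped, 1883 of the 2091 tested with a spliced reference. Inserts with few RNA reads at Pou5f1 are thus left out, and class levels are not those of all inserts of a share. RNA per gDNA at 14Rik was highest in the classes of highest share; the classes of 1 to 10% and 10 to 50% overlapped over screens. The mean of screen medians was 0.36 ± 0.03 for the 438 inserts with under 1%, 0.72 ± 0.11 for 195 with 1 to 10%, 0.83 ± 0.18 for 354 with 10 to 50%, 1.63 ± 0.19 for 330 with 50 to 90%, and 2.22 ± 0.31 for 566 with 90% or more (SD, n = 3 screens). In the highest class 411 inserts (72.6%) were called higher and 4 (0.707%) lower, against 136 (31.1%) and 58 (13.2%) in the lowest. With library totals the lowest class was below 0, at -0.35, and the order was kept.

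Unspliced reads alone gave another order. They stood at 0.45 ± 0.05 for under 1%, 0.62 ± 0.06 for 1 to 10%, 0.27 ± 0.10 for 10 to 50%, 0.18 ± 0.11 for 50 to 90% and -0.37 ± 0.25 for 90% or more (SD, n = 3). The class with the most RNA thus had the least unspliced RNA. The classes were formed by spliced share, so leaving out spliced reads lowers the high classes most, and this order is not independent of the grouping. The shares themselves correlated across sites, at r = 0.828 and rho = 0.844 over 1972 inserts with both values; each point is an insert and the points share their libraries, so no p is given. Inserts spliced in 90% or more of the siNT reads had a median share of 83.0% at 14Rik, and those with under 1% had 0%.

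**Figure D3:**
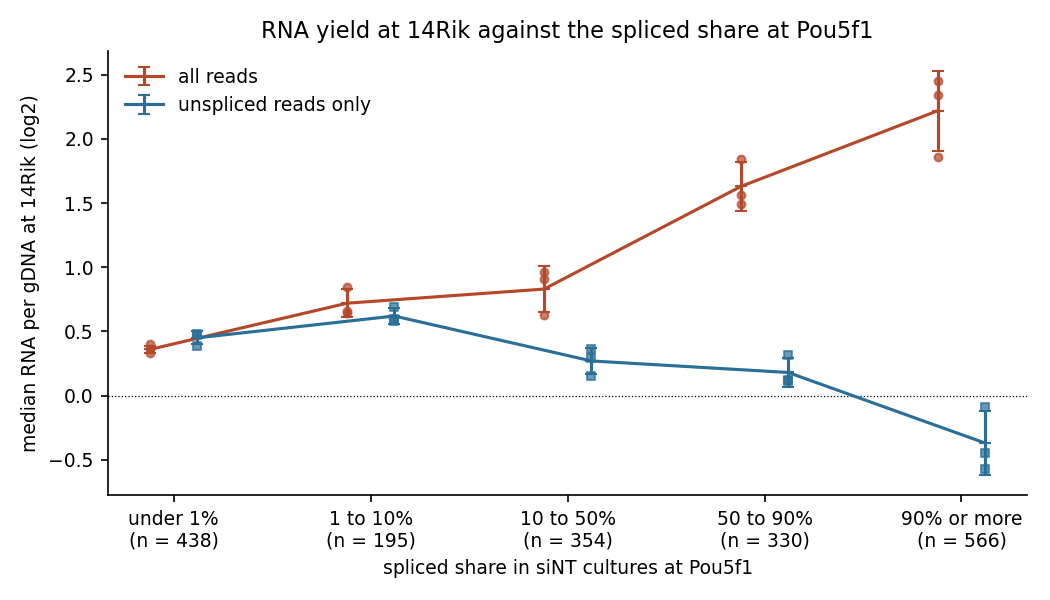
Median RNA per gDNA at 14Rik (log2) for 5 classes of inserts by their spliced share in siNT libraries at Pou5f1, counted on all reads (left in each pair) and on unspliced reads only (right). Each count was scaled on its own. Small points are the 3 screens, and bars are mean and SD; all reads climb to 2.22 in the class of 90% or more, where unspliced reads are at -0.37.

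Yield was also arranged along the numbering of the inserts. The files do not say what the numbers follow, and the ranges of 500 and 1000 numbers were chosen after the values were seen, so they are a description. In all 4 ranges of 1000 from 1 to 4000 the mean of screen medians was between 0.92 and 1.02, and 44.0% to 45.8% of inserts were called higher, against 24.4% of all. It was 0.44 ± 0.30 for 4001 to 5000, -0.55 ± 0.12 for 6001 to 7000, -1.04 ± 0.13 for 8001 to 9000 and -1.51 ± 0.25 for 11001 to 12000 (SD, n = 3). In that last range 19 inserts (2.20%) were called higher and 369 (42.7%) lower. The next range, 12001 to 13000, had the highest mean, at 1.25 ± 0.19, with 50.9% called higher, although in screen 2 its 1.04 lay below the 1.21 to 1.36 of the 4 ranges up to 4000.

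At number 12001 the share of inserts with a spliced reference changed as well, while at the lower numbers it stayed between 5.8% and 13.2%. Spliced references covered 5.8% of numbers 11001 to 12000, 75.8% of 12001 to 13000 and 44.9% of 13001 to 14000, and 5.21% to 13.2% of every other range. Within 12001 to 13000, the 665 inserts with a spliced reference had a level of 1.83 ± 0.17 and the 201 without one -1.14 ± 0.16. On unspliced reads those 665 were at -0.30 ± 0.12, above the -1.14 of the 201, a value scaled with all reads. In 13001 to 14000 the corresponding values were -0.31 and -0.88. The order ran the other way in 6001 to 7000, at -0.66 and -0.55, and in 14001 to 15000, at -0.03 and 0.06. Within 1 to 4000 the inserts without a spliced reference were high as well, at 0.84 to 0.98 by range, and those with one were at 1.38 to 1.69 although their median share was 0.768% to 3.88%. Among inserts with a spliced reference, high yield in the low numbers and in the 12000s thus went with different shares. The median share was at most 3.88% in the low numbers and 76.3% in 12001 to 13000. It was measured on 75 to 120 inserts per range up to 4000 and on 649 in 12001 to 13000. For inserts without a spliced reference, most of the low numbers, no share could be measured.

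**Figure D4:**
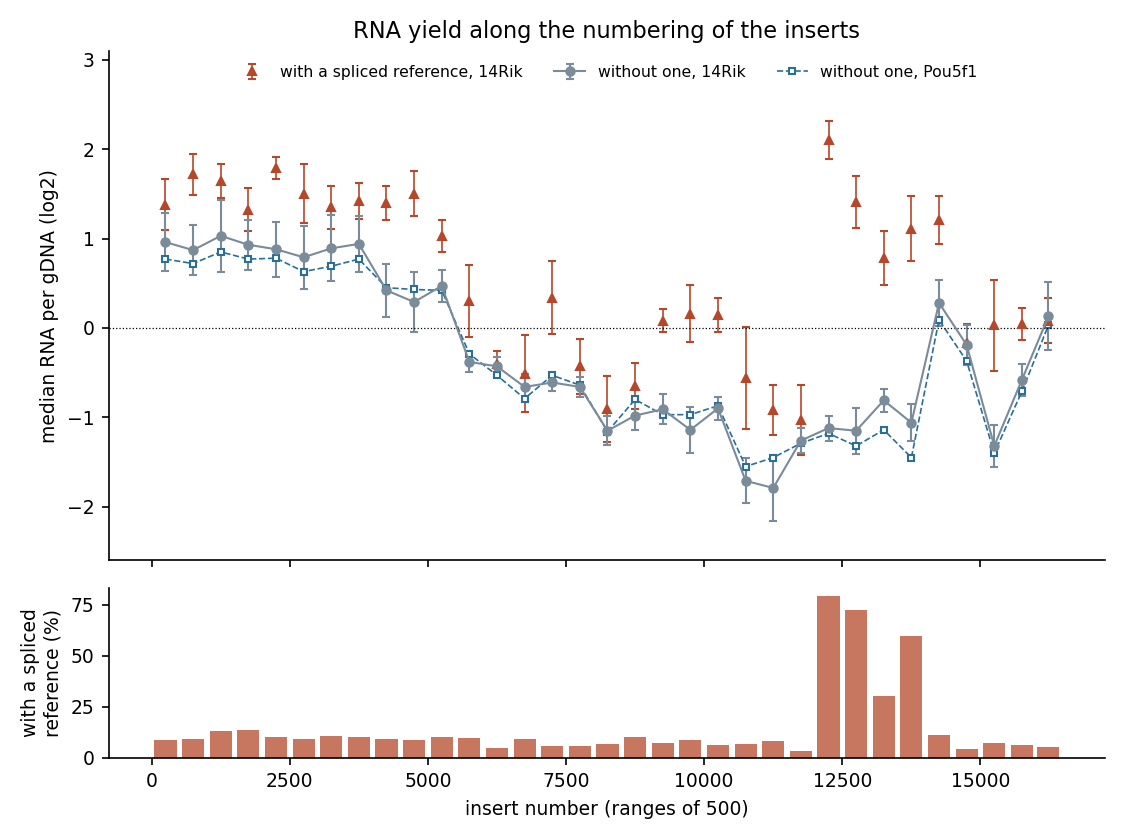
Top, mean of screen medians of RNA per gDNA (log2) for ranges of 500 insert numbers, for inserts with a spliced reference at 14Rik, inserts without one at 14Rik (bars are SD over 3 screens), and inserts without one at Pou5f1 (dashed), which are limited to those with 50 reads in all 7 gDNA libraries. Bottom, percentage of the range with a spliced reference; inserts without one go from about 1 in the low numbers to -1.79 at 11001 to 11500 and stay low in the 12000s, where 72.4% to 79.2% of inserts have a spliced reference.

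The arrangement was alike at the other site. Over the 17 ranges of 1000 numbers, and on the 10076 inserts with 50 reads in all 7 gDNA libraries, median levels at 14Rik and at Pou5f1 correlated at r = 0.991 and rho = 0.991, with no library in common but the same inserts. The 14Rik value was the higher one in all 17 ranges, by 0.01 to 0.54. Levels were scaled at each site separately, over the inserts tested there, so equal values need not be equal yields. The range with the most different level on these inserts was 13001 to 14000, at 0.05 ± 0.14 at 14Rik (SD, n = 3) and -0.49 ± 0.05 at Pou5f1 (SD, n = 4).

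Single inserts were compared between the sites by the interaction of site and RNA against gDNA, on the same 10076 inserts. The site, the cell line, the allele and the primer distance change together and cannot be told apart. Few inserts were called: 100 had a higher RNA per gDNA at 14Rik than at Pou5f1 and 118 a lower one, 2.16% of those tested (0.992% higher and 1.17% lower; edgeR adjusted p under 0.05). An unadjusted edgeR p under 0.05 was reached by 1748 inserts, so an insert not called is not thereby alike at the sites. Calls were made for 2.52% of inserts with a spliced reference and for 2.11% of those without one. Over these inserts the mean levels at the sites correlated at r = 0.704 and rho = 0.764. Of 2761 called higher than gDNA at 14Rik, 1770 (64.1%) were also called higher at Pou5f1, where 23.4% of these inserts were; this is 75.0% of the 2359 called there. Of 1712 called lower at 14Rik, 802 (46.8%) were called lower at Pou5f1, where 17.4% of these inserts were; this is 45.8% of 1751. Over all 10650 inserts tested at Pou5f1, 40.7% were called, 23.0% higher and 17.6% lower. Opposite calls were made for 30 inserts.

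**Figure D5:**
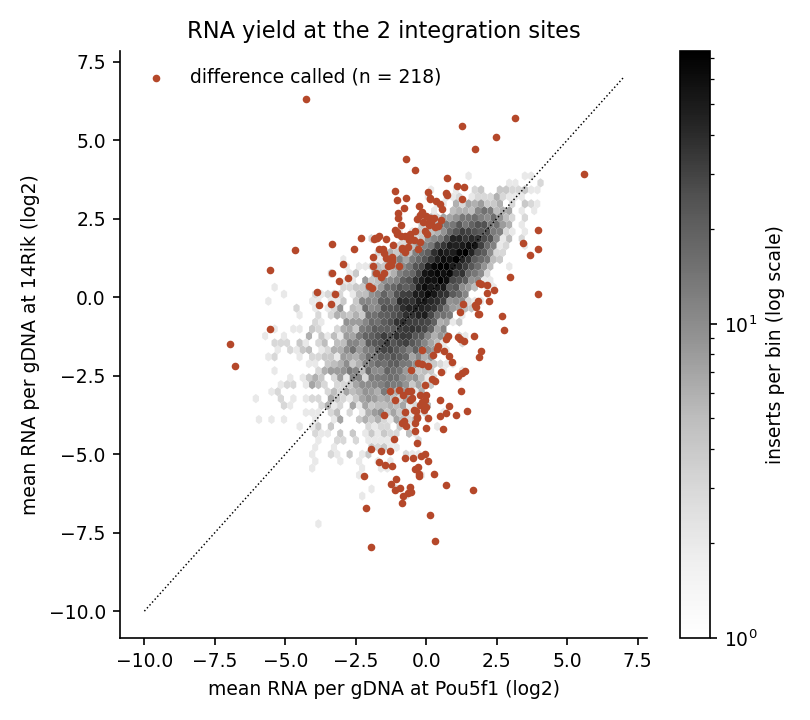
Mean RNA per gDNA (log2) of each of 10076 inserts at 14Rik (vertical axis, 3 screens) against Pou5f1 (horizontal axis, 4 screens), with grey for the number of inserts per bin. The dotted line marks equal values, which need not be equal yields, because levels were scaled at each site separately. Coloured points are the 218 inserts whose difference was called, and most inserts lie along the line.

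Among the inserts higher at 14Rik, sequence_11994 had levels of 6.04, 5.75 and 7.10 at 14Rik, against -2.72, -1.79, -8.86 and -3.63 at Pou5f1, where 26, 370, 0 and 644 RNA reads stood beside 216, 1154, 630 and 3940 gDNA reads. The difference was 9.73 ± 1.28 (log2, SE; edgeR adjusted p = 0.00342). The insert sequence_11224 had 682, 1028 and 280 RNA reads at 14Rik beside 1618, 1012 and 792 gDNA reads, against 0, 0, 0 and 14 RNA reads at Pou5f1 beside 66, 198, 182 and 546 gDNA reads (edgeR adjusted p = 0.0363). Neither has a spliced reference. Both were named under the condition that the sites did not overlap.

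In the other direction, sequence_03477 had 2, 0 and 10 RNA reads at 14Rik beside 180, 162 and 330 gDNA reads, against 408, 3984, 2594 and 8326 RNA reads at Pou5f1 beside 136, 1010, 910 and 1142 gDNA reads. It gave almost no RNA at 14Rik and more than a typical insert at Pou5f1 (log2 difference -8.54 ± 0.77, SE; edgeR adjusted p = 0.000706). The insert sequence_06127 had 6, 0 and 12 RNA reads beside 334, 1624 and 1106 gDNA reads at 14Rik, against 84, 812, 702 and 1554 RNA reads beside 68, 540, 310 and 1132 gDNA reads at Pou5f1 (edgeR adjusted p = 0.0111). The number of inserts called depended on single libraries: without the pair of libraries numbered 2 or 3 at 14Rik it was 75 or 39, and without those numbered 1, 2, 3 or 4 at Pou5f1 it was 43, 55, 133 or 68. The pair numbered 1 at Pou5f1 was the shallowest, with 2665226 RNA and 1991728 gDNA reads on insert references. Without it 13341 inserts passed the gDNA minimum in place of 10076, so the 43 come from a larger set. The call for sequence_11224 was lost under 8 of 15 alternatives (edgeR adjusted p up to 0.142), and that for sequence_06127 without screen 3 at 14Rik or screen 1 at Pou5f1 (edgeR adjusted p = 0.0693 and 0.0804). The number was 57 without the screen as a block and 897 by DESeq2's Wald test.

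Spliced shares were compared over 1887 inserts with 20 reads in all 7 RNA libraries and no minimum of gDNA reads. The median share was 35.1%, 39.8% and 46.0% in the 3 libraries at 14Rik, against 42.3%, 24.8%, 30.6% and 50.0% in the 4 at Pou5f1. The means of 40.3% ± 5.45 (SD, n = 3) at 14Rik and 36.9% ± 11.4 (SD, n = 4) at Pou5f1 differed by 3.38 percentage points, less than the spread between libraries (two-sided exact permutation test, p = 0.629; the smallest p that 3 against 4 libraries allow is 0.0571). In pooled reads of the same inserts the difference was -3.83 points. Mean shares of single inserts correlated at r = 0.857 between the sites.

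Few single inserts were called for a different share. By edgeR on spliced and unspliced counts with the library as a block, 5 inserts had a higher spliced share at 14Rik and 44 a lower one, 2.6% of those tested (0.265% higher and 2.33% lower; adjusted p under 0.05). Of the 433 with an unadjusted p under 0.05, 117 were higher and 316 lower. Among differences over 20 percentage points the directions were more even, with 224 inserts higher and 262 lower at 14Rik. Over differences of any size, 672 inserts had a higher mean share at 14Rik and 1085 a lower one, with a median difference of -1.07 points. Those lower included sequence_01427, with 0 spliced reads of 46120 at 14Rik (a share of up to 0.0065%), against 15.0%, 3.83%, 14.0% and 20.1% at Pou5f1 (edgeR adjusted p = 0.0282). Its RNA per gDNA, scaled at each site separately, was alike at the sites, at 2.01 ± 0.36 (SD, n = 3) at 14Rik and 1.83 ± 0.33 (SD, n = 4) at Pou5f1. The insert sequence_09644, whose spliced form lacks 25 nt, had 0 spliced reads of 11606 at 14Rik (up to 0.0258%), against 46.15%, 27.7%, 28.4% and 29.0% at Pou5f1 (edgeR adjusted p = 0.0284).

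Those higher included sequence_13746, whose spliced form lacks 109 nt: it was spliced in 95.2%, 59.0% and 49.6% of 1198, 332 and 892 reads at 14Rik, against 0 of 5846 reads over the 4 libraries at Pou5f1 (up to 0.0513%; edgeR adjusted p = 0.0484). It had 848, 66 and 14 gDNA reads at 14Rik and so is not among the inserts tested there for RNA per gDNA. The insert sequence_01765, with 36 nt removed, was spliced in 8.01%, 3.88% and 2.76% of its reads at 14Rik, against 0 of 13262 reads at Pou5f1 (up to 0.0226%; edgeR adjusted p = 0.0297). A lack of overlap between the sites was a condition for naming these 4 inserts. These calls rest on every library at 14Rik and on library 1 at Pou5f1: when any one of these was left out edgeR called 0 inserts, with 287 to 355 at an unadjusted p under 0.05, while limma on all libraries called 117. The call for sequence_13746 was also lost when library 2, 3 or 4 at Pou5f1 was left out (edgeR adjusted p = 0.0505 to 0.0742).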

How the data were processed

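The deposited counts are reads per insert reference as the authors counted them. The submitters' processing notes name cutadapt 1.14 and Bowtie2 2.3.4.3. Per the file headers, an RNA library has counts for every insert reference in unspliced and, for some, spliced form, and a gDNA library for the unspliced form alone. All counts are even, so both mates of a read pair were probably counted. Per the labels' protocols, gDNA and RNA were amplified by PCR. No molecular identifiers are described, so intervals and limits cover counting error only. The limits given for shares without a spliced read count single reads, and on read pairs they would be higher.

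Unspliced and spliced counts were added to give RNA. Tests used edgeR 4.0.16 (TMM, quasi-likelihood, screen as a block) in R 4.3.3; alternatives used DESeq2 1.42.0 and limma 3.58.1. The interaction fit for the sites used all 7 screens. The code was tested on simulated data. The deposited ratio values equalled RNA over gDNA of the same-numbered libraries up to 1 constant per screen, within 1% for all 15140 to 15534 inserts above the authors' lowest value, against at most 276 with other pairs. Deviations from group means correlated at 0.224, 0.0328 and 0.308 between same-numbered libraries and at most 0.0461 between others, so the pairing rests on the authors' ratios and the shared number.

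The inserts, classes and ranges were chosen with earlier results of these data known. The text names inserts called with the largest change, the same sign in each screen (between sites, no overlap) and a mean of 200 gDNA reads or more. For shares and spliced forms at the lincRNA site alone, the inserts named are those with the most RNA reads. For shares compared between the sites, they are those called with the largest fitted change in each direction and no overlap, not those with the most reads.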

Additional observations from a re-analysis of the deposited data

Results flagged for a closer look

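The RNA yield of 218 inserts and the spliced share of 49 differed between 14Rik and Pou5f1 by a test of the difference itself. Among the inserts named, the log2 difference in RNA per gDNA, 14Rik minus Pou5f1, was 9.73 for sequence_11994, 6.33 for sequence_11224, -8.54 for sequence_03477 and -8.4 for sequence_06127. Those of the last 3 rest on 14 RNA reads at Pou5f1 and on 12 and 18 at 14Rik, so their size depends on the prior count. Over the alternatives they were 5.75 to 9.49 for sequence_11224, with 9.49 without library 4 at Pou5f1, -9.44 to -7.87 for sequence_03477 and -9.58 to -7.09 for sequence_06127. The difference in mean spliced share was 67.9 percentage points for sequence_13746, 4.88 for sequence_01765, -13.2 for sequence_01427 and -32.8 for sequence_09644.

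In 2 of 9 groups of 4 Pou5f1 libraries 1 library stood far from the other three, where chance gives about 1 in 20 groups. They were library 3 for sequence_03477, at a log2 RNA per gDNA of 1.08, and library 1 for sequence_09644, at a spliced share of 46.15%, which rests on 52 reads.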

How the results depend on the processing

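Of the results with a comparison of their own, 36 of 59 values under alternatives were counted as unchanged and 23 were not. Differences had to keep their direction and their side of the threshold, or move by less than the spread. Numbers of calls were compared without regard to the split into higher and lower. The 36 thus include library totals at 14Rik, with 1808 higher and 4776 lower against 3598 and 2733. They also include DESeq2 size factors between the sites, with 112 higher and 107 lower against 100 and 118. For RNA against gDNA at 14Rik, the calls were 2816 to 7420 when 1 screen was left out, 5884 without the block that pairs same-numbered libraries, 8053 by DESeq2's Wald test (3990 higher and 4063 lower) and 7306 by limma-voom. For the sites, 132 inserts were called with at least 10 gDNA reads, 117 with at least 200, 75 with no minimum, 897 by DESeq2, 57 without the block and 39 to 206 without 1 screen. Halving counts to read pairs, chosen after seeing the data, gave 6447 and 255 calls. For spliced shares limma called 117, and leaving out 1 library gave 0 to 75. The difference in median share was -3.83 points in pooled reads and -0.913 to 7.41 without 1 library. The gap between inserts with and without a spliced reference was 0.07 on unspliced reads, since spliced reads are then left out. The causes of the other changes were not tested. Of 12 results for 11 inserts with a test, named in a comparison, none changed sign under an alternative that gave it a value, and 30 of 151 such values missed the threshold, 19 of them for spliced shares. Depth limits single inserts: those with under 200 gDNA reads had a median SD of 1.54 over screens.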
